A study of Mus musculus with 12 samples.

Results

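RNA levels of 33 genes of mature oligodendrocytes were followed in the hippocampus of mice given a mixture of Gulf War chemicals. Genes of the structural myelin proteins were left out, and some of the 33 are also expressed in precursors or in other cells. The 33 genes code for transcription factors, lipid and metabolic enzymes, receptors and membrane proteins, secreted proteins, and proteins of the cytoskeleton and of intracellular signalling. All 33 symbols were found once among the 41743 genes of the deposited table, and all 33 were among the 13493 that averaged 0.5 RPKM or more and were tested. RPKM is the number of reads per kilobase of gene model and per fixed number of reads of the library. The animals were male C57Bl/6 mice, 12 weeks old. The control group was labelled vehicle. The toxicant group had received pyridostigmine bromide at 2.5 mg/kg and chlorpyrifos at 12.5 mg/kg, both inhibitors of cholinesterase, together with the insect repellent DEET at 7.5 mg/kg, injected under the skin on weekdays for 2 weeks, and tissue was taken when dosing ended. The labels give 6 animals per group, but the deposited columns of controls 4 and 5 were the same from the first gene to the last. They were counted as 1 library, control 4-5, which left 5 control and 6 toxicant libraries.

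Oligodendrocytes wrap axons in myelin and supply them with metabolites. Their precursors leave the cell cycle under Olig and Sox factors, and Myrf then switches on the genes of myelination. Making the sheath takes a large output of galactolipids, cholesterol and membrane proteins, and mature cells also couple to one another and to astrocytes through gap junctions. In whole tissue, fewer oligodendrocytes and less RNA per oligodendrocyte cannot be told apart. The myelin genes Mbp, Mog, Mag, Mobp and Opalin were detected in every library, and the summed level of 14 structural myelin genes was 778 to 870.1 RPKM in control and 541 to 740.5 RPKM in toxicant libraries.

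The libraries held 21.5 to 34.9 M reads (M, mega) behind the RPKM scale. The share of reads on annotated genes was 78.4% to 89.5% in control and 76.8% to 83.8% in toxicant libraries. Control 2 had the lowest share among the controls (78.4%) and control 4-5 the next (83.1%), both within the toxicant range. The other controls were at 87.4% to 89.5%. The median log2 fold change over all tested genes was -0.11, so values below are to be read against that shift. Each member had at least 56 reads in each library.

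The 33 genes were mostly lower in toxicant hippocampi, and 0 of them passed the test after adjustment over all genes. Of the 33, 30 had a log2 fold change below 0, 28 lay below the median of all genes, and their own median was -0.35. At an unadjusted p under 0.05 in limma, 23 members were lower and 0 higher, where 17.0% of all tested genes were lower and 3.33% higher. That is 69.7% of the members. In 5 members (15.2%) every toxicant library lay below the lowest control, and this was so in 2.03% of all tested genes. The smallest adjusted p among members was 0.0715 and the largest 0.988, and across all 13493 genes limma called 0% at an adjusted p under 0.05.

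**Figure D1:**
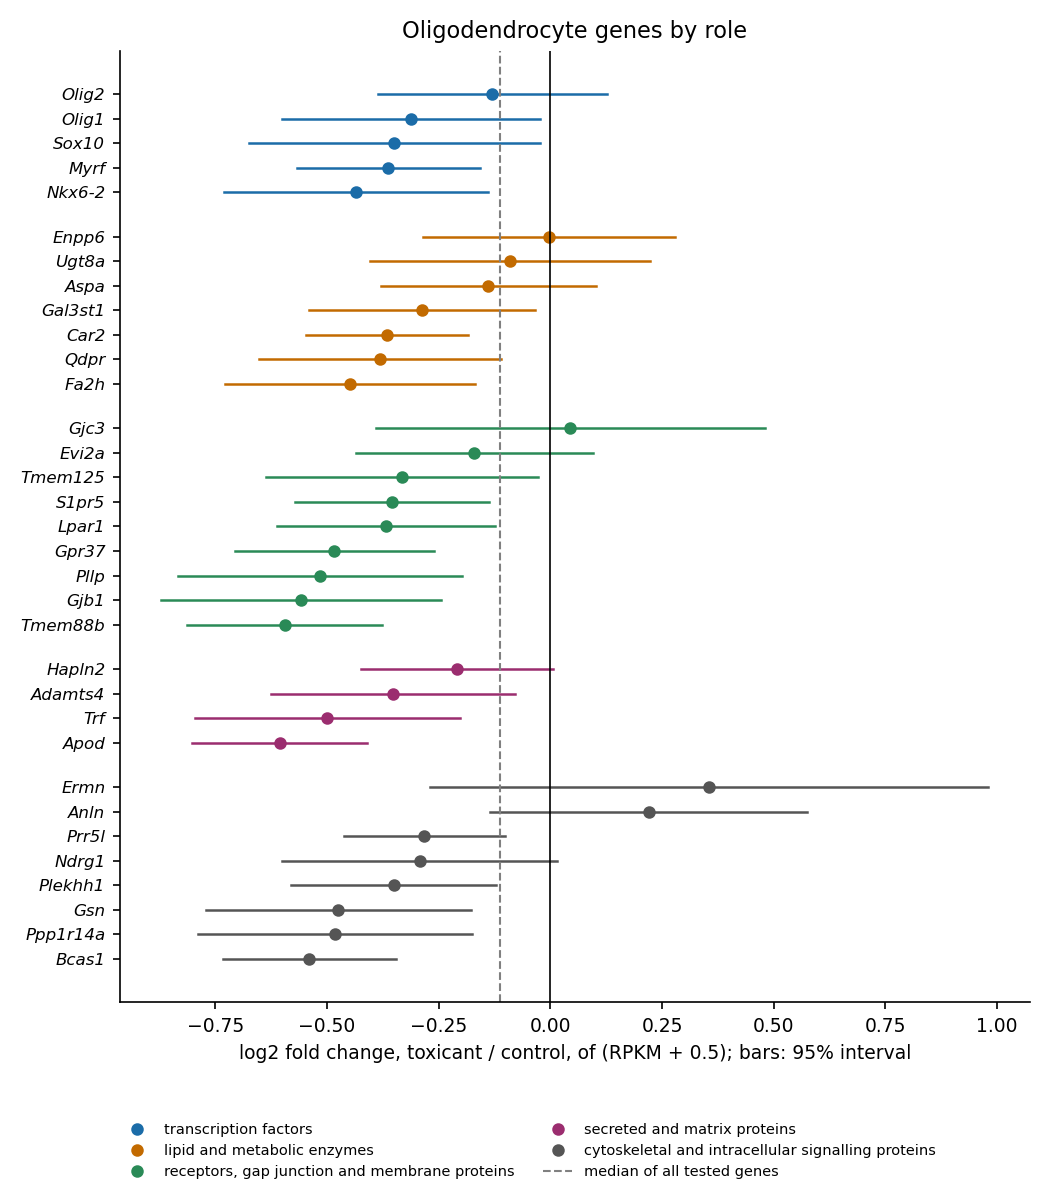
Log2 fold change (toxicant over control, of RPKM + 0.5) of each of the 33 genes, grouped by role, with 95% intervals from limma. Points to the left of the solid line are lower in toxicant libraries. The dashed line is the median of all tested genes (-0.11), and Ermn, Anln and Gjc3 are the 3 genes with positive values.

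The 5 genes whose groups did not overlap were Apod, Tmem88b, Bcas1, Gpr37 and Car2. Promoter sequences from RefSeq (GRCm38.p6) are shown for Apod and Tmem88b, which had the smallest p of those with an entry. They are also shown for Gjc3 and Ermn, which, like Anln, were not lower. Each covers 250 bases before and 50 after the start site, read 5′ to 3′ on the strand of the gene. Capitals mark a match on either strand to CTGGNAC or to ACAANG, a core bound by SOX factors. CTGGNAC was used here as a loose pattern for Myrf, with any base allowed at N.
Apod (chr16:31314759-31315058, minus strand): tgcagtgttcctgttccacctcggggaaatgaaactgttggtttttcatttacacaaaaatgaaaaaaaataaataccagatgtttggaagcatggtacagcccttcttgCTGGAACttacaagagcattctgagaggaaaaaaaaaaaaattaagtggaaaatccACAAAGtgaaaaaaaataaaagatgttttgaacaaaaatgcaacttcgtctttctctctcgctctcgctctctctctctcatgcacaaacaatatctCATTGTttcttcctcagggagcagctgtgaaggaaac
Tmem88b (chr4:155785825-155786124, minus strand): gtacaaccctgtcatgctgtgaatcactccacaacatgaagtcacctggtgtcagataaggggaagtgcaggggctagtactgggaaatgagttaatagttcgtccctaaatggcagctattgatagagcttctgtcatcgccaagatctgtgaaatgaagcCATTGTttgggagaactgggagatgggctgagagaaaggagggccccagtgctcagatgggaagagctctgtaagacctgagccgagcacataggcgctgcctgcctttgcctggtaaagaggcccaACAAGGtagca
Gjc3 (chr5:137963049-137963348, minus strand): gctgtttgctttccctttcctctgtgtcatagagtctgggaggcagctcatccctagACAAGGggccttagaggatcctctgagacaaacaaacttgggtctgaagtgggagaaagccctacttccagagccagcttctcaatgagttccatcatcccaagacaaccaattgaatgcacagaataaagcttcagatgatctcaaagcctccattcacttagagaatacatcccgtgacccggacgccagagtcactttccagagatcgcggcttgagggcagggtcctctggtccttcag
Ermn (chr2:58052815-58053114, minus strand): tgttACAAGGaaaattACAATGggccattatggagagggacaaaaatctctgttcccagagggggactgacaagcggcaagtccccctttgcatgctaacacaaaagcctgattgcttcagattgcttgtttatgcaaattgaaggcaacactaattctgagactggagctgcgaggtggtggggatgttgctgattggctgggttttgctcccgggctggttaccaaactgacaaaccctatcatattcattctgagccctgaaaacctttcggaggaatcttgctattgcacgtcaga

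The Apod promoter held 1 match to CTGGNAC at base 111, with A at N, and SOX matches starting at bases 167 and 264. The other 3 promoters shown held SOX matches and no match to CTGGNAC. The promoter of Anln, which is not shown, held 0 matches to either motif. Of the 33 members, 23 had an entry, with 34 promoters in all. CTGGNAC was found in 11 of these 34 (32.4%) and in 19.3% of all 32851 promoters, and the SOX core in 16 (47.1%) and in 41.2%. The 2 motifs share no base in the sequences shown. A match is a run of letters, not a measured binding site.

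Among the transcription factors, Myrf, which activates the genes of myelination in mature cells, had the smallest p. Its level was 6.16, 4.60, 6.19, 5.05 and 5.49 RPKM in controls 1, 2, 3, 4-5 and 6, and 4.31, 3.83, 4.96, 4.20, 3.63 and 4.03 RPKM in toxicants 1 to 6. All toxicant libraries but toxicant 3 lay below control 2, the lowest control. The means were 5.50 ± 0.694 (SD, n = 5) and 4.16 ± 0.465 RPKM (SD, n = 6), and the log2 fold change was -0.36 ± 0.09 (SE, limma adjusted p = 0.176).

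Nkx6-2, a homeodomain factor of late differentiation, was at 7.48, 4.46, 7.61, 6.21 and 6.11 RPKM in the controls and at 4.71, 3.86, 5.25, 4.11, 3.82 and 5.58 RPKM in the toxicant libraries. Control 2 lay among the toxicant values, and the log2 fold change was -0.43 ± 0.14 (SE, limma adjusted p = 0.207). Sox10, which keeps the lineage and works together with Myrf, was at 16.4, 9.56, 17.1, 12.6 and 14.7 RPKM in the controls and 11.5, 9.02, 13.6, 10.6, 8.85 and 11.4 RPKM in the toxicant libraries. Control 2 lay within the toxicant range and toxicant 3 above control 4-5, and its log2 fold change was -0.35 ± 0.15 (SE, limma adjusted p = 0.235).

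The bHLH factors Olig1 and Olig2, which specify the lineage and are already made in precursors, overlapped between the groups. Olig1 was at 76.3, 43.4, 66.0, 55.2 and 61.7 RPKM in the controls and at 51.0, 42.2, 50.9, 41.0, 50.3 and 53.0 RPKM in the toxicant libraries (log2 fold change -0.31 ± 0.13). Olig2 was at 13.4, 8.29, 12.0, 10.1 and 11.6 RPKM in the controls and at 10.99, 8.78, 10.2, 8.51, 10.6 and 10.98 RPKM in the toxicant libraries. No toxicant library lay below control 2 for Olig2. Its log2 fold change was -0.13 ± 0.12, with a 95% interval of -0.39 to 0.13 (limma adjusted p = 0.446), so a decrease as large as that of Myrf lies within it.

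Among the enzymes, Car2, a carbonic anhydrase of myelinating cells that the choroid plexus also makes, was at 58.6, 53.5, 65.9, 55.3 and 54.1 RPKM in the controls and at 50.1, 44.4, 45.5, 41.1, 40.5 and 45.04 RPKM in the toxicant libraries. The groups did not overlap, and the log2 fold change was -0.37 ± 0.08 (SE, limma adjusted p = 0.166). Fa2h, which hydroxylates the fatty acids of myelin galactolipids, was at 10.9, 7.35, 11.6, 8.18 and 10.01 RPKM and at 6.46, 6.87, 8.79, 6.59, 5.62 and 6.90 RPKM. Only toxicant 3 reached into the control range, and the log2 fold change was -0.45 ± 0.13 (limma adjusted p = 0.201).

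Qdpr, which regenerates tetrahydrobiopterin and is rich in oligodendrocytes, had the highest level of the 33 genes per kilobase. It was at 109.9, 71.3, 102.7, 76.6 and 93.1 RPKM in the controls and at 77.2, 63.3, 71.3, 59.9, 64.3 and 77.8 RPKM in the toxicant libraries, and the log2 fold change was -0.38 ± 0.12 (limma adjusted p = 0.207). Gal3st1, which adds sulfate to galactosylceramide, had means of 4.69 ± 1.04 (SD, n = 5) and 3.69 ± 0.266 RPKM (SD, n = 6), and its log2 fold change was -0.29 ± 0.12.

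Ugt8a, which makes that galactosylceramide, overlapped between the groups. Its level, given here after it was seen, was 5.29, 8.85, 6.29, 7.50 and 5.64 RPKM in the controls and 5.30, 7.30, 7.59, 6.44, 4.68 and 6.16 RPKM in the toxicant libraries. Control 2 was the highest of all 11 and control 1 among the lowest, the reverse of their order for Fa2h. The log2 fold change was -0.09, with a 95% interval of -0.40 to 0.22. Aspa, which splits N-acetylaspartate to acetate, had a log2 fold change of -0.14 (interval -0.38 to 0.10), and Enpp6, a choline phosphodiesterase made as precursors begin to differentiate, one of -0.0033 (interval -0.28 to 0.28). The values of Ugt8a and Aspa depended on the processing. With the share of reads on genes in the model they were -0.34 and -0.32, and with the trend on GC content removed -0.35 and -0.41 (limma adjusted p = 0.144 and 0.125). Other settings moved them the other way, to 0.03 and -0.04 after median-ratio scaling and to 0.0082 and -0.07 without control 2.

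Tmem88b, a membrane protein, led the receptors, gap junction and membrane proteins. It was at 18.9, 15.3, 19.9, 17.0 and 15.8 RPKM in the controls and at 12.8, 11.1, 12.9, 10.6, 9.23 and 11.4 RPKM in the toxicant libraries. The highest toxicant library lay below the lowest control, and the log2 fold change was -0.60 ± 0.10 (SE, limma adjusted p = 0.0729). Gpr37, an orphan receptor of differentiating and mature oligodendrocytes, was at 11.3, 8.38, 11.4, 8.55 and 9.91 RPKM and at 7.24, 6.43, 7.98, 6.44, 5.98 and 7.43 RPKM. Here too the groups did not overlap (log2 fold change -0.48 ± 0.10, limma adjusted p = 0.153).

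The set holds 2 connexins. Gjb1, connexin 32, forms channels within the myelin sheath and was at 6.43, 4.28, 7.79, 3.99 and 5.65 RPKM in the controls and at 3.74, 3.15, 4.02, 3.45, 3.20 and 3.86 RPKM in the toxicant libraries. Only toxicant 3 exceeded the lowest control, and the log2 fold change was -0.56 ± 0.14 (limma adjusted p = 0.176). Gjc3, connexin 29, was at 4.47, 11.2, 6.40, 10.8 and 5.81 RPKM and at 6.84, 8.01, 9.02, 7.33, 6.44 and 7.73 RPKM. Its controls spread around all the toxicant values, with a log2 fold change of 0.04 and an interval of -0.39 to 0.48. Values by library are given for Gjc3 and Ermn after they were seen. The difference between the 2 connexins was not tested.

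The lysophospholipid receptors Lpar1 and S1pr5, both G protein-coupled, had log2 fold changes of -0.37 ± 0.11 and -0.35 ± 0.10. Lpar1 went from 5.28 ± 0.720 (SD, n = 5) to 3.99 ± 0.637 RPKM (SD, n = 6). S1pr5 went from 5.77 ± 0.876 (SD, n = 5) to 4.38 ± 0.415 RPKM (SD, n = 6). For each receptor, 4 of 6 toxicant values lay under the lowest control. Pllp, the tetraspan protein plasmolipin, went from 21.5 ± 5.01 to 14.7 ± 1.96 RPKM (-0.52 ± 0.15) and the membrane protein Tmem125 from 1.86 ± 0.417 to 1.38 ± 0.347 RPKM (-0.33 ± 0.14). Evi2a, which lies within the span of Nf1 on the opposite strand, had a log2 fold change of -0.17 and an interval of -0.44 to 0.10. It was at -0.33 both with the share of reads on genes in the model and with the GC trend removed (limma adjusted p = 0.132 in the latter). Other settings moved it toward 0, to -0.05 after median-ratio scaling and to -0.11 without control 2.

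Apod, a secreted lipid-binding lipocalin, had the smallest p of the 33 genes. It was at 28.5, 24.2, 29.3, 29.7 and 27.3 RPKM in the controls and at 21.02, 16.4, 18.2, 18.9, 15.4 and 18.9 RPKM in the toxicant libraries. The gap between the groups ran from 21.02 to 24.2 RPKM, and the lowest control was again control 2. The log2 fold change was -0.61 ± 0.09 (SE, limma adjusted p = 0.0715), a level 34.3% lower on the scale of RPKM + 0.5. Apod (ENSMUSG00000022548) spans chr16:31296192-31314808 and Tmem88b (ENSMUSG00000073680) chr4:155781591-155785874 in GRCm38, both on the minus strand.

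Trf, transferrin, carries iron and is made by oligodendrocytes and by the choroid plexus. It was at 69.0, 44.1, 70.7, 47.6 and 55.4 RPKM in the controls and at 45.3, 41.0, 43.4, 36.9, 32.2 and 40.8 RPKM in the toxicant libraries. Only toxicant 1 exceeded the lowest control, and the log2 fold change was -0.50 ± 0.14 (limma adjusted p = 0.193). Summed over 10 choroid plexus markers, the level was 2915 RPKM in control 3, 645 in control 4-5 and 1825 in toxicant 2, and 15.9 to 109 RPKM in the other 8 libraries. The log2 fold change of Trf was -0.42 without control 3 and -0.51 without toxicant 2, and that of Car2 -0.32 and -0.37.

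Adamts4, a matrix protease of mature oligodendrocytes, was at 4.24, 3.83, 5.22, 3.99 and 4.90 RPKM in the controls and at 4.21, 3.34, 3.99, 3.28, 2.34 and 3.19 RPKM in the toxicant libraries (log2 fold change -0.35 ± 0.13). Exons of 11 members overlap exons of genes on the other strand, and reads of such pairs cannot be told apart if the counting ignored strand. The partners of Adamts4, Nkx6-2 and Plekhh1 had means above 1 RPKM and those of the other 8 means of at most 0.633 RPKM. Trf and Evi2a also share exons with a gene model on their own strand. Hapln2, which links the matrix at nodes of Ranvier, was at 8.24 to 9.43 RPKM in the controls and at 6.31 to 7.54 RPKM in all toxicant libraries but toxicant 3, which was at 9.91 RPKM. Its log2 fold change was -0.21, with an interval of -0.42 to 0.0053.

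Among the proteins of the cytoskeleton and of signalling, Bcas1, which marks early myelinating cells, was at 36.3, 33.3, 38.7, 37.4 and 35.5 RPKM in the controls and at 27.8, 22.8, 27.4, 22.7, 21.3 and 27.3 RPKM in the toxicant libraries. The highest toxicant library lay below the lowest control, and the log2 fold change was -0.54 ± 0.09 (SE, limma adjusted p = 0.0729). Gsn, the actin-severing protein gelsolin, was at 18.2, 10.8, 19.8, 13.6 and 15.9 RPKM and at 12.1, 11.4, 11.3, 9.50, 9.91 and 11.4 RPKM. Control 2 lay within the toxicant range (log2 fold change -0.47 ± 0.14, limma adjusted p = 0.201).

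Ppp1r14a, an inhibitor of myosin phosphatase, was at 10.8, 6.46, 11.1, 7.13 and 8.96 RPKM in the controls and at 5.28, 5.65, 7.18, 5.36, 6.19 and 7.09 RPKM in the toxicant libraries (-0.48 ± 0.14). Plekhh1, a protein with a pleckstrin homology domain, had a log2 fold change of -0.35 ± 0.11, Prr5l, which binds the kinase complex mTORC2, one of -0.28 ± 0.08, and Ndrg1, a stress-responsive gene whose loss causes demyelinating neuropathy, one of -0.29 ± 0.14. For Plekhh1 and Prr5l, 5 of 6 toxicant libraries lay below the lowest control, and for Ndrg1 2 of 6.

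Ermn, the actin-binding protein ermin of the late myelin sheath, had the largest positive value. It was at 3.22, 11.9, 4.29, 7.57 and 4.87 RPKM in the controls and at 4.51, 8.63, 9.76, 9.32, 5.59 and 8.80 RPKM in the toxicant libraries. Control 1 was the lowest and control 2 the highest of all 11 libraries, so the groups overlapped fully. The log2 fold change was 0.36 with an interval of -0.27 to 0.98. It was 0.17 without control 1, 0.60 without control 2 (limma adjusted p = 0.0607). Taking out the GC trend left a value of 0.03. Anln, anillin, a scaffold of the contractile ring that oligodendrocytes also use to hold septins in myelin, had a log2 fold change of 0.22 and an interval of -0.13 to 0.58. Its value was 0.11 without control 1, 0.34 without control 2 (limma adjusted p = 0.0733). Removal of the GC trend put it at 0.03.

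**Figure D2:**
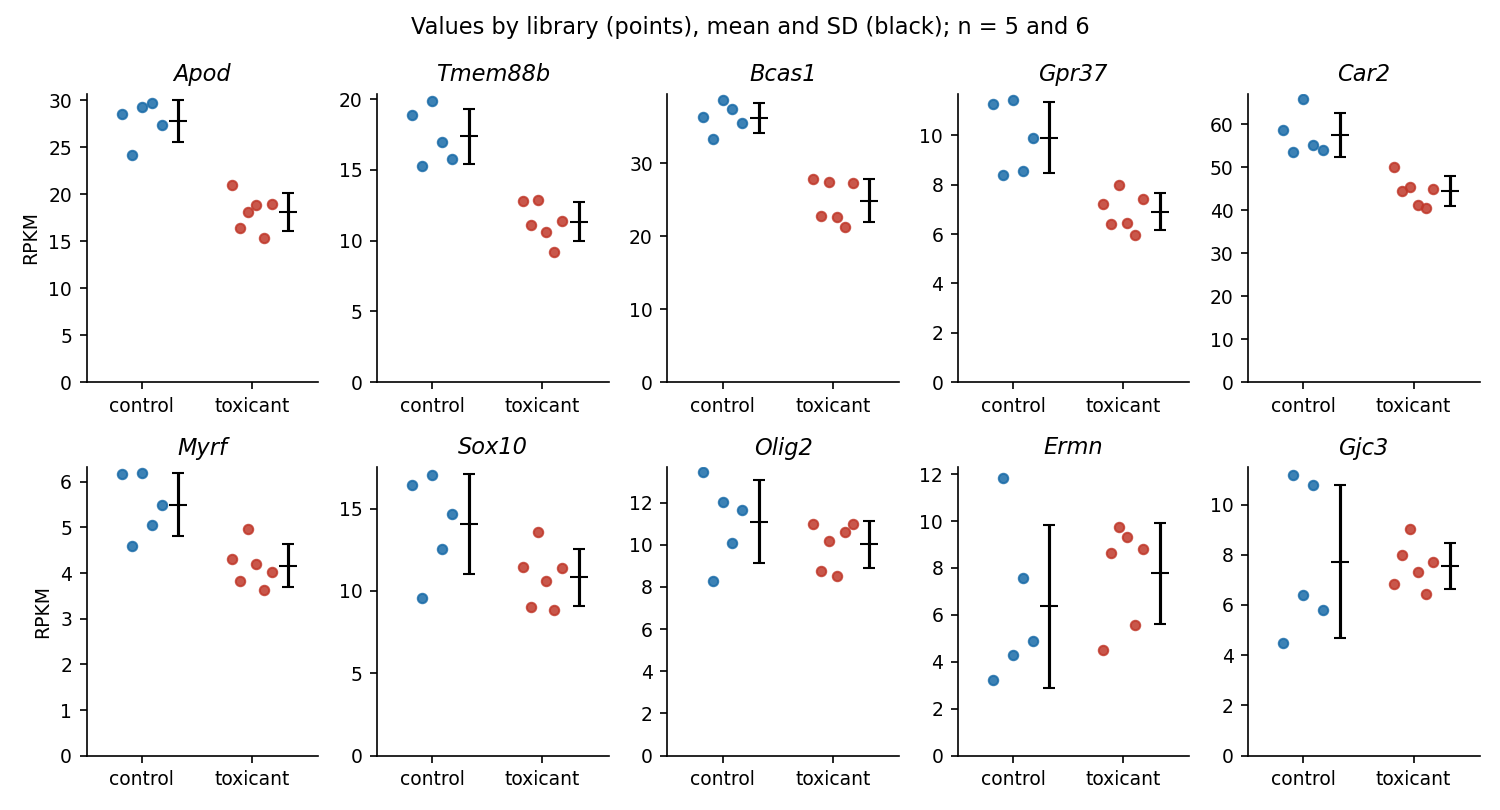
RPKM of 10 of the genes in each library (points, 5 control and 6 toxicant), with the mean and SD of each group in black. The groups do not overlap for Apod, Tmem88b, Bcas1, Gpr37 and Car2, overlap in part for Myrf and Sox10, and overlap widely for Olig2, Ermn and Gjc3.

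Within the controls the members differed in opposite directions. Between control 1 and control 2, which had the highest and the lowest share of reads on genes (89.5% and 78.4%), 24 members were lower in control 2 and 9 were higher. The 9 were Ugt8a, Aspa, Enpp6, Lpar1, Gjc3, Evi2a, Hapln2, Ermn and Anln, and Hapln2 differed by only 0.03 on the log2 scale. The pair of controls was chosen after the values were seen. The 9 genes had a median transcript GC content of 44.4% and the 24 others one of 55.0%, where the median of all tested genes was 51.0%. Across the 33 genes, GC content and the difference of control 2 from control 1 had a Pearson r of -0.80 (Spearman rho -0.75), and across 13488 tested genes of -0.62. These are descriptions across genes of the same libraries, and genes are not independent replicates.

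**Figure D3:**
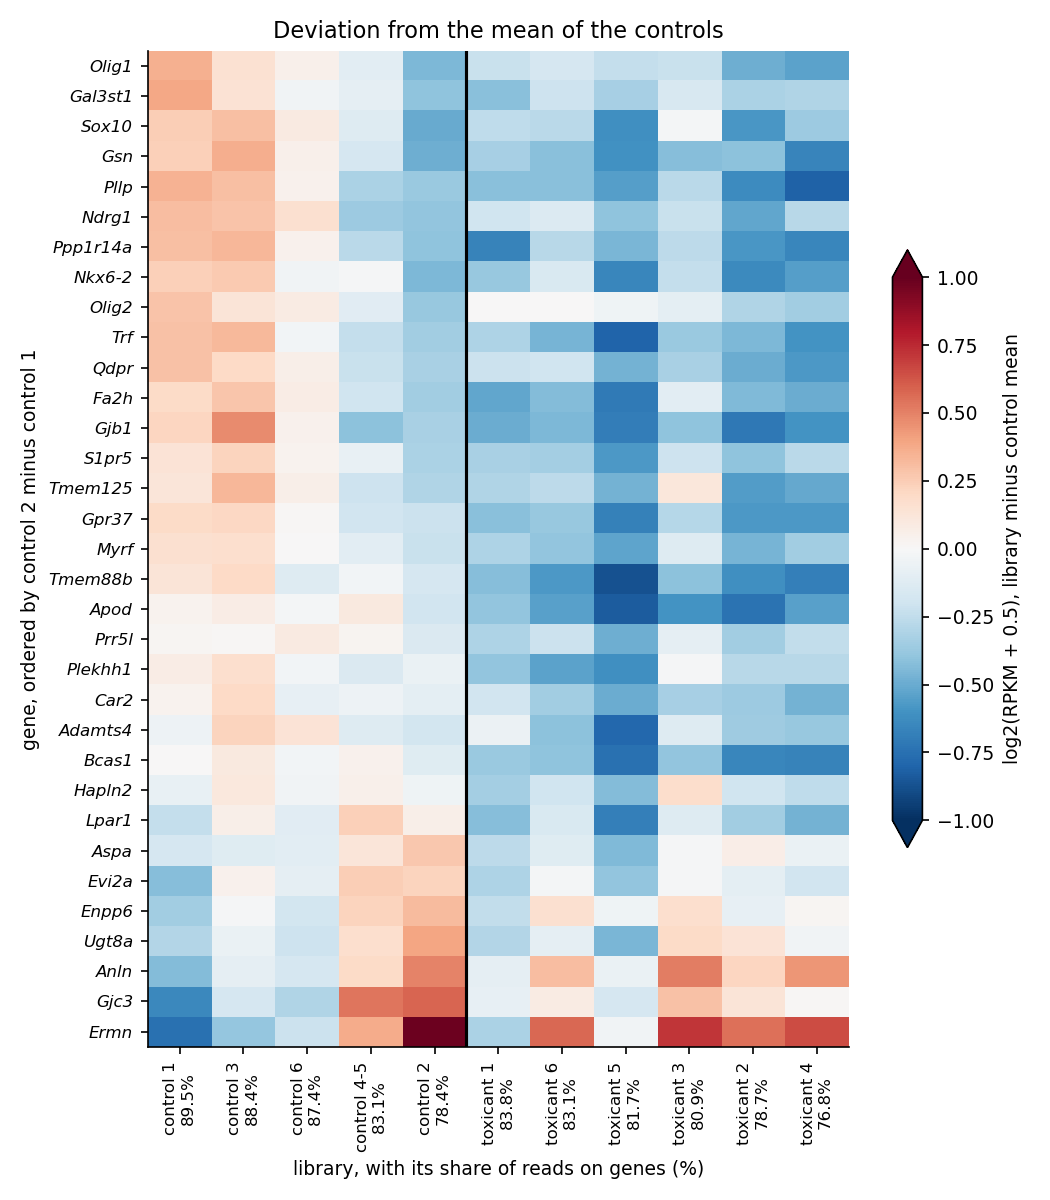
Difference of each library from the mean of the controls, in log2(RPKM + 0.5), for the 33 genes (rows, ordered by control 2 minus control 1) and 11 libraries (columns, ordered within each group by the share of reads on genes). Rows near the bottom, from Aspa to Ermn, run the other way from the top rows across the controls, while Apod, Tmem88b and Bcas1 are lower in each toxicant library than in each control.

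The same 9 genes had a median log2 fold change of -0.09 between the groups, and 1 of them was lower at an unadjusted p under 0.05. The 24 others had a median of -0.37, and 22 were lower at that threshold. When limma was given each library's share on genes as a covariate, these 2 medians became -0.32 and -0.24. The split was made on the controls with the extreme values of that covariate, so the direction in which each set of genes shifted follows from the split and is no separate observation. In that fit 32 of 33 members were lower, as were 61.2% of all tested genes. Gjc3 then had a log2 fold change of -0.32, Ermn of -0.24 and Anln of -0.09. Of the 33 values, 14 were smaller by over 1.5 times than without the covariate, 4 larger (Ugt8a, Aspa, Enpp6 and Evi2a), 4 on the other side of 0 and 11 within that range. The values of Apod, Tmem88b and Bcas1 were -0.53, -0.49 and -0.45, while Sox10 was at -0.09, Olig1 at -0.03 and Ndrg1 at -0.03.

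Olig2 was the 1 member above 0 in that fit, at 0.12 on the log2 scale (limma adjusted p = 0.300). At an unadjusted p under 0.05, 19 members were lower and 1 higher, where 9.13% of all tested genes were lower and 4.34% higher, and 0 members passed after adjustment. The median of the members was -0.24 and that of all genes -0.03. The share of reads on genes averaged 85.4% ± 4.58 over the controls (SD, n = 5) and 80.8% ± 2.68 over the toxicant libraries (SD, n = 6), so the covariate and the group move together. What part the share has in the values was not tested beyond this fit.

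**Figure D4:**
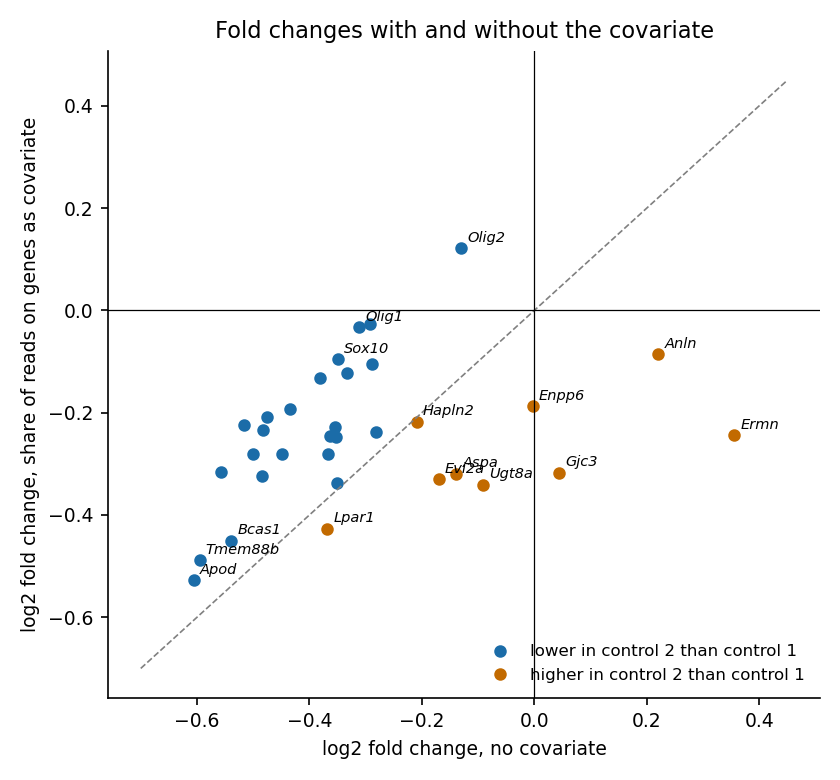
Log2 fold change of each of the 33 genes without (x axis) and with (y axis) each library's share on genes in the model, with the line of equal values dashed. The 9 genes higher in control 2 than in control 1 are in orange, and their place on or below the line follows from how they were chosen. Olig2 is the 1 gene above 0 on the y axis.

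After median-ratio scaling, which brought the median of all genes to 0.0014, the median of the members was -0.23, and 17 were lower at an unadjusted p under 0.05, where 5.14% of all tested genes were. With each library's trend on GC content removed, the median was -0.28, and 24 members were lower at that threshold, where 17.1% of all tested genes were. Every toxicant library was then below every control for 11 members, and for 1.96% of all tested genes.

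The calls after adjustment depended on which libraries entered and how they were weighted. Without control 2, limma called 24 of the 33 members lower and 0 higher at an adjusted p under 0.05, where it called 28.1% of all tested genes lower and 8.56% higher. Apod then had a log2 fold change of -0.65 (adjusted p = 0.0172), and the 9 members not called were Olig2, Ugt8a, Aspa, Enpp6, Gjc3, Evi2a, Hapln2, Ermn and Anln. Every toxicant library lay below every control for 13 members without control 2, where 11.9% of all tested genes did, and for 12 without toxicant 3, where 3.19% did. With weights for the libraries estimated from the data, 26 members were called lower and 4 higher, where 49.6% of all tested genes were lower and 21.2% higher. With all 12 columns as deposited, which counts 1 library as 2, Apod, Tmem88b and Bcas1 were called lower, and 0.0666% of all tested genes were.

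The counts for the other lists stand beside the same shares of all tested genes, 17.0% lower and 3.33% higher at an unadjusted p under 0.05 and 2.03% without overlap. The structural myelin genes, a neighbouring list, had a median log2 fold change of -0.45, with 11 of 13 tested lower at an unadjusted p under 0.05, and their groups did not overlap for 5. Opalin was at 6.07 ± 0.540 (SD, n = 5) and 3.55 ± 0.550 RPKM (SD, n = 6), a log2 fold change of -0.71 ± 0.10, and that of Mog was -0.53 ± 0.11. The 18 genes of precursors and newly formed oligodendrocytes had a median of -0.09, near that of all genes, and 6 had values above 0. At that threshold 1 was lower, Sirt2, a deacetylase that mature cells keep (-0.32 ± 0.12). Gpr17, a receptor of cells about to differentiate, had a log2 fold change of -0.21 ± 0.10. The difference between these lists and the 33 genes was not tested.

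Other genes of the pathways the members work in had medians nearer to that of all genes. Of 20 tested genes of sphingolipid synthesis and turnover, 4 were lower at an unadjusted p under 0.05 and 0 higher, a share near that of all genes. Their median was -0.07, and 9 had values above 0. Cers2, the ceramide synthase for very long chains, was at a mean of 11.7 RPKM in control and 9.25 in toxicant libraries, below the lowest control in 6 of 6 toxicant libraries (log2 fold change -0.32 ± 0.08), and the elongase Elovl5 had a value of -0.27 ± 0.08. Of 9 genes of N-acetylaspartate and acetate handling, the substrate side of Aspa, 1 was lower, the carrier Slc13a3 (-0.33 ± 0.08), and the synthase Nat8l had a log2 fold change of -0.27 ± 0.13.

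Of 6 tested connexins outside the set, 1 was lower at that threshold and 0 higher, with a median of -0.14. Gjb2, found in astrocytes and meninges, did not pass that threshold (log2 fold change -0.22 ± 0.10). Of 8 tested lysophospholipid receptors and enzymes outside the set, 2 were lower: S1pr1, a receptor of endothelium and astrocytes, with a log2 fold change of -0.24 ± 0.07, and the phosphatase Plpp3 with one of -0.22 ± 0.09.

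Markers of other cells differed in value as well, and their part in the members' values was not tested. Of 10 endothelial markers 7 were lower at an unadjusted p under 0.05 (median -0.27), with Pecam1 at -0.39 ± 0.08 and Cdh5 at -0.34 ± 0.07. For 5 of the 10 every toxicant library lay below the lowest control, a larger part than the 5 of 33 members. Their summed level was 43.6 to 55.2 RPKM in control and 38.7 to 42.4 RPKM in toxicant libraries. Of 10 microglia markers 4 were lower (median -0.24), with Itgam at -0.36 ± 0.09. Their sums were 119 to 168 RPKM in control and 101.98 to 129 RPKM in toxicant libraries.

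Of 10 astrocyte markers 2 were lower, Gfap (-0.38 ± 0.11) and Sox9 (-0.30 ± 0.12), and 4 had values above 0. Their median was -0.14, with sums of 451 to 498 against 411 to 479 RPKM. Of 10 neuron markers 2 were lower and 1 higher, with a median of -0.16, Camk2a at -0.33 ± 0.11 and Gad2 at 0.42 ± 0.15, and sums of 1595 to 2289 against 1455 to 1876 RPKM. The 10 choroid plexus markers had a median of -0.51, with Sostdc1 at -0.70 ± 0.59 and Otx2 at -0.48 ± 0.42, and 0 were lower at that threshold. Their median was -0.11 without control 3 and -1.04 without toxicant 2, and 4 were lower without toxicant 2. Of 7 tested meningeal and fibroblast markers 1 was higher, Dcn (0.59 ± 0.23), while Col1a1 had a value of -0.18 ± 0.10, and sums were 15.8 to 37.3 RPKM in control and 14.8 to 31.6 RPKM in toxicant libraries. No marker of these lists was at 0 in every library. Without control 2, 4 precursor, 7 sphingolipid, 4 N-acetylaspartate, 2 connexin and 4 lysophospholipid genes were lower at an unadjusted p under 0.05. So were 5 astrocyte, 7 microglia and 6 neuron markers. Of these lists, 3 precursor genes, 2 neuron markers and 1 gene each of the sphingolipid, N-acetylaspartate and astrocyte lists were higher. In that fit 5386 of 13468 tested genes were lower and 1721 higher, a larger share lower than the 17.0% with all libraries. The counts without control 2 are to be read against that larger share.

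**Figure D5:**
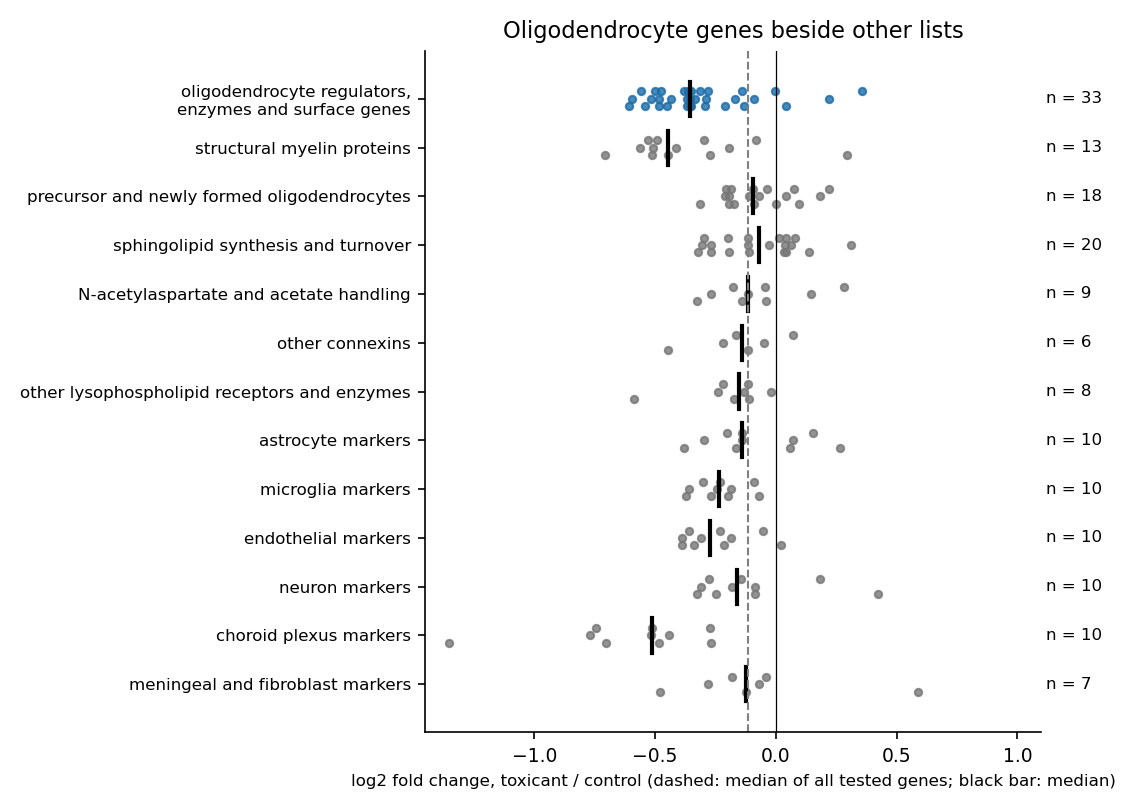
Log2 fold change of each tested gene (points) of the 33-gene set and of 12 other lists, with the median of each list as a black bar and the number of tested genes at the right. The dashed line is the median of all tested genes (-0.11), and the medians of the set (-0.35) and of the structural myelin proteins (-0.45) lie below it. The median of the choroid plexus markers (-0.51) rests on single libraries and was -0.11 without control 3.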

How the data were processed

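RNA was measured in whole mouse hippocampi. The libraries were made from polyadenylated RNA and sequenced as single reads of 75 bases, per the labels' protocols. The deposited table held RPKM values, per the file headers, and each column was matched to its sample by its description code. Which aligner, annotation and genome build were used is not given in the sources used here.

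Reads behind the RPKM values were recovered with exon lengths from GENCODE M21 (GRCm38, 41675 of 41743 IDs matched). Between 98.3% and 98.4% of a library's values above 0 came out whole within 0.05 reads. Values were analysed as log2(RPKM + 0.5), a scale on which changes of low genes come out too small. Genes averaging 0.5 RPKM or more were tested with limma 3.58.1 in R 4.3.3 (eBayes with a trend, two-sided, no covariate, Benjamini-Hochberg over all tested genes, threshold 0.05), and the script was tested on simulated data. Intervals are 95% intervals from that fit. The design named 12 samples, and identical columns entered once.

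The members and the other lists were chosen with earlier results of these data known, so no list was tested. Values by library are given for the transcription factors and the 3 members of each other role with the smallest p, and from each other list the 2 genes with the smallest p are named. The rule also named the gene with the largest p of each list, which is left out here, and some genes that the rule names are not reported here. GC content is the mean over a gene's GENCODE M21 transcripts. Alternatives were other pseudocounts, filters, scalings and variance models, a covariate, a replicate block, leaving out each library and an exact rank-sum permutation test. The GC trend and limma's voom on recovered reads were added after seeing the data.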

Additional observations from a re-analysis of the deposited data

Results flagged for a closer look

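Of 66 groups of values tested (33 genes in 2 groups), 1 held a library far from the others, where chance gives about 5%. Hapln2 was at 9.908 RPKM in toxicant 3 and at 6.31 to 7.54 RPKM in the other 5 toxicant libraries.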

How the results depend on the processing

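Depth limits Tmem125 and Enpp6 most among the members. Leaving out 1 library at a time, the calls over all genes at an adjusted p under 0.05 ranged from 0 to 1153 higher and from 0 to 3779 lower, and only the fit without control 2 gave calls for members (0 to 24 lower). At an unadjusted p under 0.05 the range was 151 to 1721 higher and 1158 to 5386 lower over all genes, and 0 to 2 higher and 19 to 25 lower among members. Members whose groups did not overlap ranged from 5 to 13, the members' median from -0.41 to -0.30, and on the log2 scale Ugt8a from -0.1648 to 0.0082, Enpp6 from -0.0905 to 0.0766 and Gjc3 from -0.12 to 0.19. Ermn ranged from 0.17 to 0.60 and Anln from 0.11 to 0.34. Counts of lower genes ranged from 10 to 11 for structural myelin, 0 to 4 for precursor, 3 to 7 for sphingolipid, 1 to 4 for N-acetylaspartate, 1 to 2 for connexin, 1 to 4 for lysophospholipid, 1 to 5 for astrocyte, 4 to 7 for microglia, 6 to 8 for endothelial, 1 to 6 for neuron, 0 to 4 for choroid plexus and 0 to 1 for meningeal genes. The causes of the changes given here were not tested.

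With sample weights, 2863 genes were higher and 6690 lower at the adjusted threshold and 2978 and 6895 at the unadjusted one, with 26 members lower and 4 higher after adjustment, 4 higher without it, Ugt8a at 0.0473 and Enpp6 at 0.19. With 12 libraries, 9 genes and 3 members were lower after adjustment, and Gjc3 was at -0.0448. With the share on genes in the model, 1232 genes were lower without adjustment and 1 member higher, Olig2 was at 0.12, Gjc3 at -0.32, Ermn at -0.24, Anln at -0.0857 and the median of the neuron markers at 0.0098. Median-ratio scaling gave 1105 genes higher and 694 lower, Ugt8a at 0.0314, Enpp6 at 0.0708, and medians of 0.0147 for precursor, 0.0527 for sphingolipid and 0.0027 for N-acetylaspartate genes. Quantile normalization gave 850 higher and 1173 lower, with medians of 0.0135 for astrocyte and 0.0138 for neuron markers. No filter gave 732 genes higher, and a pseudocount of 0.1 gave 1 gene higher after adjustment, with Enpp6 at 0.0047. With the GC trend removed, groups did not overlap for 11 members, Enpp6 was at 0.0171 and Gjc3 at -0.0056, and voom put Enpp6 at 0.0222. The exact rank-sum permutation test gave 122 genes higher and 1308 lower at an unadjusted p under 0.05, and 0 after adjustment. Among members it gave 16 lower and 0 higher at the unadjusted threshold, where limma gave 23 lower.

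The labels link same-numbered libraries by nothing but the number. Their deviations from the group means correlated at -0.30 to 0.62, and 1 of 5 correlated best with its own number. So few pairs cannot show whether such libraries were handled together. With the number as a replicate block, 1064 genes were higher and 3600 lower at an unadjusted p under 0.05, 24 members were lower at that threshold, and Enpp6 was at 0.0050.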
